A study of Mus musculus with 4 samples.

Results

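The death receptor pathway was followed in mouse mammary tumor cell lines with and without the JNK genes, through 10 genes taken by symbol from the 38713 genes of the expression table. The genes were the receptors Fas, Tnfrsf10b and Tnfrsf1a, the ligands Tnfsf10 and Tnf, the adaptor Fadd, the protease Casp8, its relative and inhibitor Cflar, and the kinases Ripk1 and Ripk3. All 10 were present in the table. The list was chosen by pathway with the FPKM difference of its genes between JNK_KO and JNK_WT in these libraries in view, so that the differences between genotypes given for the 10 genes are a description and carry no test.

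RNA was sequenced from 4 lines, each grown from 1 tumor of a C57BL/6 mouse and each giving 1 library. The JNK_WT lines (p53-/-, replicates 1 and 2) came from parous mice carrying Wap-Cre and LoxP-flanked Trp53 with wild-type Mapk8 and Mapk9. The JNK_KO lines (p53-/- JNK-/-, replicates 1 and 3) came from parous mice carrying Wap-Cre with Trp53, Mapk8 and Mapk9 all flanked by LoxP sites. Loss of Trp53, which encodes p53, is therefore shared by both groups, and loss of Mapk8 (JNK1) and Mapk9 (JNK2) separates them. Wap-Cre is a recombinase driven by a milk protein promoter that is active in the luminal epithelium of the lactating gland, and the cells were brought into culture from collagenase-dispersed tumors before they were expanded as lines. With 2 lines in each group, a difference between lines and a difference between genotypes can be separated only as far as the spread inside each group allows.

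Death receptors are members of the tumor necrosis factor receptor family whose intracellular death domain recruits adaptor proteins. Fas, bound by Fas ligand, and the TRAIL receptor encoded by Tnfrsf10b recruit FADD, which gathers caspase-8 into a complex where it is activated, and caspase-8 in turn cuts executioner caspases and the BH3 protein BID. c-FLIP, the product of Cflar, competes with caspase-8 in that complex. TNF receptor 1, the product of Tnfrsf1a, first assembles a complex with RIPK1, TRAF proteins and ubiquitin ligases that signals to NF-kB and JNK, and where caspase-8 is inactive, RIPK1 and RIPK3 can drive necroptosis, a lytic death carried out by MLKL. In the mammary gland, epithelial cell death is best known from the involution that follows weaning.

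Fas was the gene of the list with the largest difference between the genotypes. Its expression was 0.478 and 0.810 FPKM in the JNK_WT lines and 19.4 and 20.96 FPKM in the JNK_KO lines, where FPKM are fragments per kilobase of exon, scaled to the mapped fragments of the library. Both JNK_KO lines were far above both JNK_WT lines. The mean was 0.644 ± 0.235 FPKM (SD, n = 2) in JNK_WT and 20.2 ± 1.09 FPKM (SD, n = 2) in JNK_KO, a 31.4-fold difference between the mean FPKM. On the log2(FPKM + 1) scale, which understates the change of low genes, the difference was 3.69 (SE 0.31), while the JNK_WT lines were 0.29 apart and the JNK_KO lines 0.11 apart. By absolute difference Fas ranked 66 among the 12998 genes with at least 1 FPKM in at least 2 libraries, and it entered that set only through the JNK_KO libraries. Fas lies on chromosome 19 from 34290666 to 34327772 (mm10/GRCm38, plus strand), and no annotated gene shares exon bases with it.

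The upstream promoter sequences of Fas and of Ripk3 are shown because these genes had the largest differences in the list with groups that did not overlap. Each is the run of 250 bases before the RefSeq start of the gene (GRCm38.p6), written 5′ to 3′ on the strand of the gene. Fas lies at chr19:34290409-34290658 (plus strand) and Ripk3 at chr14:55788858-55789107 (minus strand). Capitals mark the match to TGANTCA, the letters of an AP1 site, and then the match to TTCNNNGAA, the letters of an interferon-activated (GAS) site.
Fas: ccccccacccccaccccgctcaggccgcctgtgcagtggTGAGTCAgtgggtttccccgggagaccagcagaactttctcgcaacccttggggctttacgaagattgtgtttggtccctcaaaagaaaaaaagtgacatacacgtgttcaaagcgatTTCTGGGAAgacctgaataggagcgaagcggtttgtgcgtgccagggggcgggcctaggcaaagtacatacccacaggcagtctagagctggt
Ripk3: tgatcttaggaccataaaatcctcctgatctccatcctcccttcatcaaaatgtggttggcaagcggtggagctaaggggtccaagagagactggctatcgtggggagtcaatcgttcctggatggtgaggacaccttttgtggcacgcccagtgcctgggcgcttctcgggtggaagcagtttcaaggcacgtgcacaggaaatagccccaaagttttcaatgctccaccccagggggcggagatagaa

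The AP1 letters stood 211 to 205 bases before the Fas start and the GAS letters 93 to 85 bases before it, and the 2 do not overlap. The upstream Ripk3 sequence held no match to the motifs searched. Windows from 250 bases before to 50 bases after the start were found for 9 of the 10 genes, all but Tnfrsf10b, and for 2 starts of Ripk1, which gave 10 windows. The AP1 letters, searched on both strands, were in 1 of these windows (Fas) and in 7.81% of all 32851 RefSeq promoter windows. The GAS letters were in windows of 3 genes (Fas, Tnfrsf1a and Ripk1) and in 8.30% of all windows. The letters GAAANNGAA, the core of the interferon response element, were in windows of 3 genes (Cflar, Ripk1 and Ripk3) and in 8.56% of all windows, and in Ripk3 and Cflar they lay after the start. An NF-kB site was in the window of 0 of the 9 genes and in 8.46% of all windows. Such matches describe letters in a window and not binding of a factor.

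The Fas level was set apart from those of the other receptors in the list. Tnfrsf10b, the only TRAIL death receptor of the mouse (plus strand of chromosome 14, 69767472 to 69784411), was expressed at 16.2 and 11.98 FPKM in the JNK_WT lines and 19.6 and 20.2 FPKM in the JNK_KO lines. Both JNK_KO lines were above both JNK_WT lines, but the difference of 0.48 (SE 0.28, log2 scale) was close to the 0.41 between the JNK_WT lines. Tnfrsf1a (plus strand of chromosome 6, 125349362 to 125362484) was the most highly expressed of the 10 genes, at 78.4 and 106 FPKM in JNK_WT and 68.8 and 83.1 FPKM in JNK_KO. The groups overlapped, and the difference of -0.26 (SE 0.27) was smaller than the 0.42 between the JNK_WT lines. The 628 tested genes of chromosome 6 had a median difference of -0.59, and that of Tnfrsf1a was 0.32 above this median. Because FPKM are scaled to length, levels can be compared between these receptors within a library. The ratio of Fas to Tnfrsf10b was 0.0294 and 0.0676 in JNK_WT and 0.989 and 1.04 in JNK_KO, so that Fas was at about the level of Tnfrsf10b in the JNK_KO lines and well below it in the JNK_WT lines. The ratio of Fas to Tnfrsf1a was 0.00609 and 0.00767 in JNK_WT and 0.282 and 0.252 in JNK_KO, so that Fas stayed below Tnfrsf1a in all 4 lines.

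**Figure D1:**
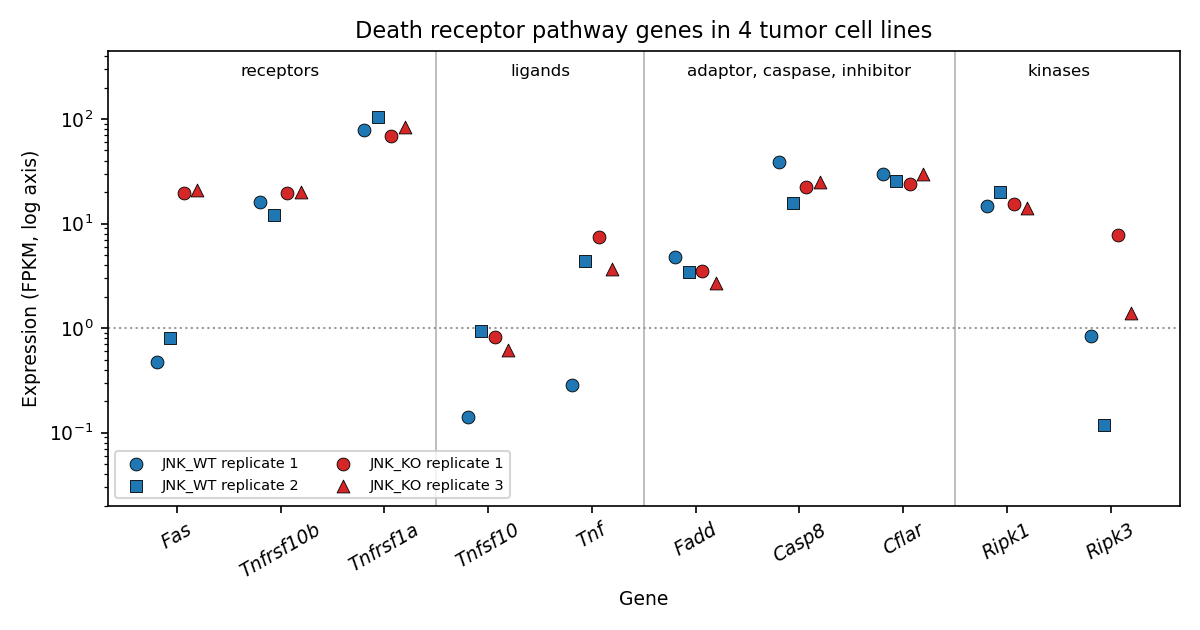
Expression of the 10 genes (FPKM, log axis, dotted line at 1 FPKM) in the 4 lines, with 1 point per library. Fas in the JNK_KO lines (19.4 and 20.96 FPKM) is far above the JNK_WT lines (0.478 and 0.810 FPKM), whereas Tnfrsf1a, Fadd, Casp8, Cflar and Ripk1 overlap between the groups.

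The ligands of the list were low or variable. Tnfsf10, which encodes TRAIL (plus strand of chromosome 3, 27317028 to 27342427), was at 0.142 and 0.940 FPKM in JNK_WT and at 0.815 and 0.612 FPKM in JNK_KO. It was under 1 FPKM in all 4 libraries, the groups overlapped, and it was the 1 gene of the list that did not pass the filter on low values. Tnf (minus strand of chromosome 17, 35199381 to 35202007) was at 0.283 and 4.43 FPKM in JNK_WT and at 7.47 and 3.64 FPKM in JNK_KO. A single library, JNK_WT replicate 1, was low, and the other 3 overlapped. The Tnf difference was 1.25 (SE 0.81) with all libraries, compared with 2.08 between the JNK_WT lines, and 0.21 without JNK_WT replicate 1. Fasl, which encodes the ligand of Fas, was at 0.0117 and 0 FPKM in JNK_WT and at 0.0249 and 0 FPKM in JNK_KO, too low to be tested.

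The adaptor, the initiator caspase and its inhibitor overlapped between the genotypes. Fadd (minus strand of chromosome 7, 144577318 to 144582463) was at 4.77 and 3.46 FPKM in JNK_WT and at 3.54 and 2.72 FPKM in JNK_KO, a difference of -0.31 (SE 0.33) that was under the 0.37 between the JNK_WT lines. Casp8 (plus strand of chromosome 1, 58795374 to 58847503) was at 38.6 and 15.9 FPKM in JNK_WT and at 22.4 and 24.8 FPKM in JNK_KO. The JNK_KO lines lay between the JNK_WT lines, which differed by 1.23, and the difference between the group means was -0.07 (SE 0.47). Its direction depended on JNK_WT replicate 1, without which the difference was 0.55. Cflar, the neighbor of Casp8 (plus strand of chromosome 1, 58711508 to 58758884), was at 29.96 and 25.4 FPKM in JNK_WT and at 23.8 and 29.9 FPKM in JNK_KO, a difference of -0.05 (SE 0.26). It had the narrowest range of the 10 genes, with the highest library 1.26 times the lowest.

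The mRNA levels of these genes were compared as ratios of FPKM within each library. Protein amounts in the complex were not measured. The ratio of Casp8 to its inhibitor Cflar was 1.29 and 0.624 in JNK_WT and 0.942 and 0.83 in JNK_KO. Both JNK_KO lines were between the JNK_WT lines. The ratio of Casp8 to Fadd was 8.09 and 4.58 in JNK_WT and 6.34 and 9.14 in JNK_KO, which also overlapped. Fadd mRNA was therefore the lower of the 2 in every line. Part of the Fadd exon, 239 bases or 6.12%, is shared with the antisense gene Faddos, and reads of the 2 genes cannot be told apart if the counting did not use strand.

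The receptor-interacting kinases differed from each other. Ripk1 (plus strand of chromosome 13, 34002363 to 34037147) was at 14.6 and 20.1 FPKM in JNK_WT and at 15.3 and 14.2 FPKM in JNK_KO, with overlapping groups and a difference of -0.21 (SE 0.29). Of its exon bases, 6.12% are shared with the pseudogene Gm17084 and 2.89% with Serpinb6a on the opposite strand. Ripk3 (minus strand of chromosome 14, 55784995 to 55788865) was at 0.840 and 0.119 FPKM in JNK_WT and at 7.72 and 1.38 FPKM in JNK_KO. Both JNK_KO lines were above both JNK_WT lines, but JNK_KO replicate 3 was much nearer to JNK_WT replicate 1 than to JNK_KO replicate 1. The mean was 0.480 ± 0.510 FPKM (SD, n = 2) in JNK_WT and 4.55 ± 4.49 FPKM (SD, n = 2) in JNK_KO, a 9.49-fold difference between means.

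On the log2 scale the Ripk3 difference was 1.67 (SE 0.73), less than the 1.87 between the JNK_KO lines, and the smallest gap between the groups was 0.37. Without JNK_KO replicate 1 the difference was 0.73. Ripk3, like Fas, entered the set of tested genes only through the JNK_KO libraries. The ratio of Ripk3 to Ripk1 was 0.0574 and 0.00593 in JNK_WT and 0.505 and 0.0972 in JNK_KO, so that Ripk3 mRNA was below Ripk1 mRNA in all 4 lines.

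**Figure D2:**
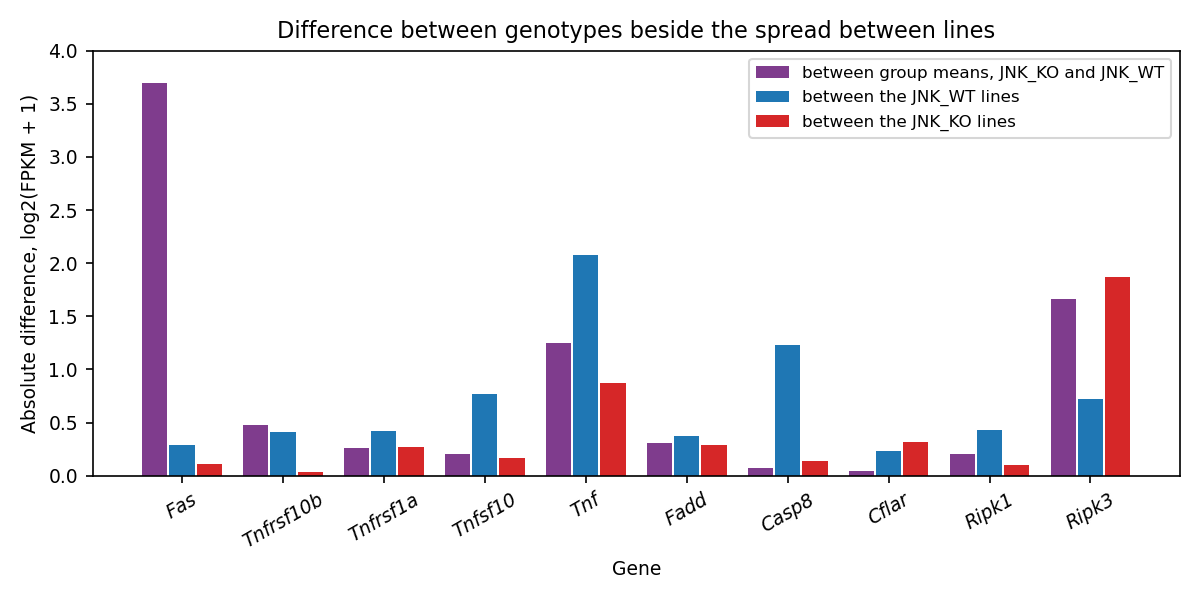
Absolute difference on the log2(FPKM + 1) scale between the group means (purple), inside JNK_WT (blue) and inside JNK_KO (red) for each of the 10 genes. Fas (3.69 between groups, 0.29 and 0.11 inside them) exceeds both spreads by a wide margin, whereas for Ripk3 (1.67) and Tnf (1.25) a spread inside a group is larger, at 1.87 and 2.08.

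By mean FPKM in the JNK_WT lines the order of the genes was Tnfrsf1a (92.0), Cflar (27.7), Casp8 (27.2), Ripk1 (17.4), Tnfrsf10b (14.1), Fadd (4.12), Tnf (2.36), Fas (0.644), Tnfsf10 (0.541) and Ripk3 (0.480). In the JNK_KO lines it was Tnfrsf1a (75.9), Cflar (26.9), Casp8 (23.6), Fas (20.2), Tnfrsf10b (19.9), Ripk1 (14.7), Tnf (5.55), Ripk3 (4.55), Fadd (3.13) and Tnfsf10 (0.714). Fas thus stood near the bottom of the order in JNK_WT and beside Tnfrsf10b in JNK_KO. The neighbors whose ranges did not overlap were Tnfrsf1a and Cflar in both groups, Tnfrsf10b and Fadd in JNK_WT, and in JNK_KO Casp8 and Fas, Tnfrsf10b and Ripk1, Ripk1 and Tnf, and Fadd and Tnfsf10. Every other pair of neighbors in each order overlapped in range. Over all 4 libraries, the highest library was at most 2.43 times the lowest for 6 of the 10 genes (Cflar, Ripk1, Tnfrsf1a, Tnfrsf10b, Fadd and Casp8). It was 6.61 times the lowest for Tnfsf10, 26.4 times for Tnf, 43.9 times for Fas and 64.8 times for Ripk3.

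Of the 9 genes that passed the filter, 3 were higher in both JNK_KO lines than in both JNK_WT lines (Fas, Tnfrsf10b and Ripk3), 0 were lower in both, and 6 overlapped. Over all 12998 tested genes, 18.3% were higher without overlap and 16.7% were lower without overlap. A difference over 0.75 without overlap was seen for 2 of the 9 genes (Fas and Ripk3) in the direction of JNK_KO, beside 7.18% of all tested genes, and for 0 of the 9 in the direction of JNK_WT, beside 4.96%. Nothing is read from these counts, because the list was chosen with the values known and 2 of the 9 genes passed the filter only where they were high. The median difference was -0.05 for the 9 genes and 0.08 for all 10, compared with 0.01 over all tested genes. By limma, 0 genes (0% of the 12998) were called at an adjusted p under 0.05 with a difference over 0.75, and the smallest adjusted p of any gene was 0.0515. At an unadjusted limma p under 0.05, 617 genes were higher and 375 were lower in JNK_KO.

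The patterns of the genes over the 4 libraries were compared by the root mean square difference of log2(FPKM + 1) after centering each gene on its mean. Tnfrsf1a and Ripk1 were the closest pair, at 0.133, both being highest in JNK_WT replicate 2. Fadd was next to Cflar (0.255) and Tnfrsf10b was next to Cflar (0.290). Fas was nearest to Ripk3 among the listed genes, but at 1.28 it was far from it. Among all tested genes those nearest to Fas were Clca2 (0.143), Sirpa (0.230) and the row named mmu-mir-7034 (0.231). Clca2 was at 0.0221 and 0.0742 FPKM in JNK_WT and at 10.8 and 10.5 FPKM in JNK_KO, and Sirpa, an inhibitory receptor for CD47, was at 0.309 and 0.354 FPKM and at 13.8 and 11.4 FPKM.

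The genes around Fas were examined after their values had been seen. Within 500 kb of the Fas start, 16 other coding genes were in the table, of which 10 were tested. Both JNK_KO lines were above both JNK_WT lines for 8 of the 10, below for 0, and overlapping for 2 (Ankrd22 and Acta2). Over all tested genes 18.3% were above and 16.7% below without overlap, but the window was chosen with its values known. Ch25h, Ifit3, Ifit3b and Slc16a12 were under 1 FPKM in both JNK_WT lines and passed the filter only through the JNK_KO lines. Nothing is therefore read from the count of 8. The largest difference among them was that of Ifit1, an interferon-induced gene 350.2 kb downstream, at 1.92 and 0.258 FPKM in JNK_WT and 23.0 and 18.8 FPKM in JNK_KO (difference 3.51). Ch25h, which encodes cholesterol 25-hydroxylase and starts 184.5 kb from Fas, was at 0.244 and 0.218 FPKM in JNK_WT and 9.15 and 4.74 FPKM in JNK_KO (2.63). Of the related Ifit2 (1.54), Ifit3 (2.77) and Ifit3b (1.82), the last pair are close paralogs that may share reads. Lipa, which encodes lysosomal acid lipase, differed by 1.68. In contrast, Acta2, which starts 35.1 kb on the other side of Fas and encodes smooth muscle actin, was at 7.36 and 3.19 FPKM in JNK_WT and 1.70 and 29.0 FPKM in JNK_KO. Over the 437 tested genes of chromosome 19 the median difference was 0.11 above that of all genes.

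**Figure D3:**
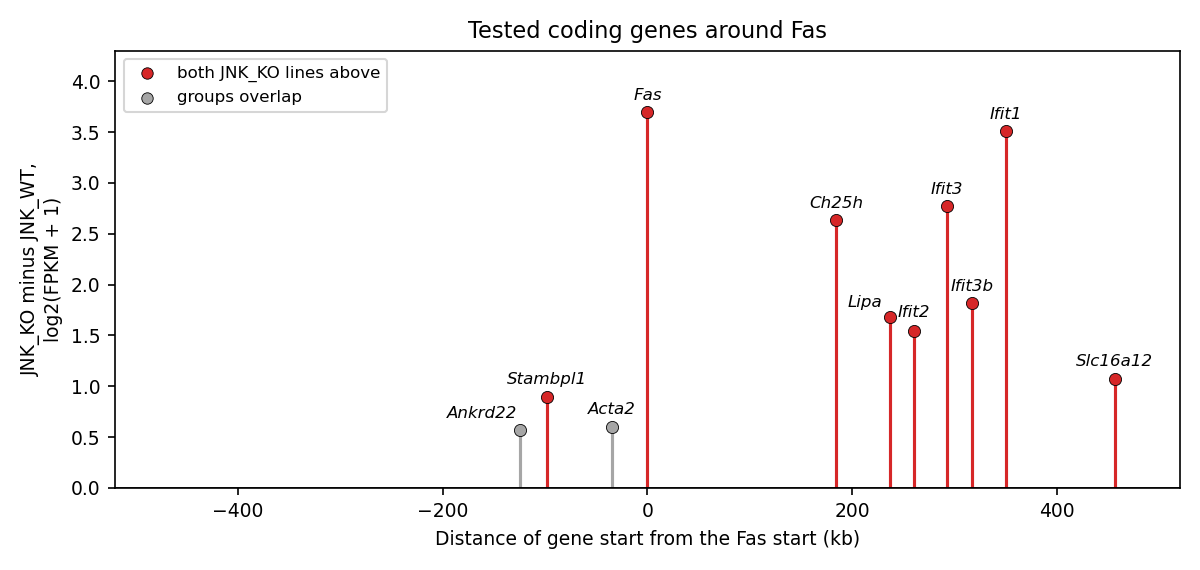
Difference between JNK_KO and JNK_WT on the log2(FPKM + 1) scale for Fas and the 10 tested coding genes whose start lies within 500 kb of the Fas start, plotted against distance (kb). Genes in red have both JNK_KO lines above both JNK_WT lines (Fas and 8 neighbors), and Ankrd22 and Acta2 in gray overlap.

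The interferon response was followed beside Fas. Irf7, a transcription factor induced by type I interferon, was at 6.99 and 2.29 FPKM in JNK_WT and 108 and 72.9 FPKM in JNK_KO. In contrast, Irf1 overlapped, at 54.4 and 34.3 FPKM and at 30.1 and 40.4 FPKM. Their part in the Fas difference was not tested.

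Markers of other cell types were examined for the same libraries. The summed FPKM of 6 fibroblast markers was 1.39 and 1.17 in JNK_WT and 105 and 172 in JNK_KO, mostly from Dcn and Pdgfra. Of the 6, 3 (Dcn, Pdgfra and Thy1) were higher in both JNK_KO lines. The share over all tested genes was 18.3%, but of these markers only Dcn and Pdgfra were tested. Both were under 1 FPKM in the JNK_WT lines and passed the filter only through the JNK_KO lines. Nothing is therefore read from this count. Thy1 was too low to be tested, and Lum and Col3a1 overlapped. Col1a1, which encodes the main collagen of fibroblasts, was under 1 FPKM in every library. The summed FPKM of 6 luminal epithelial markers was 3265 and 2403 in JNK_WT and 1033 and 2015 in JNK_KO, and all 6 were at 1 FPKM or more in every library. Of the 6, 2 (Epcam and Krt8) were lower without overlap, beside 16.7% of all tested genes, and the rest overlapped. The 6 basal epithelial markers summed to 25.8 and 732 in JNK_WT and 37.8 and 375 in JNK_KO, which overlapped. The sums of 12 leukocyte markers (22.2 and 3.70 in JNK_WT, 3.67 and 9.87 in JNK_KO) and of 4 endothelial markers (0.177 and 0.519, 0.384 and 0.238) did not separate the groups. Most of the leukocyte sums came from Cd68, at 19.95 and 3.15 FPKM in JNK_WT and 2.65 and 8.43 FPKM in JNK_KO. Nkg7 and Tyrobp were among the leukocyte markers at 0 in all 4 libraries. The fibroblast sum was higher and the luminal sum lower in both JNK_KO lines, where Fas was higher. Their part in the Fas difference was not tested. In such bulk samples, a change in the number of cells expressing a gene and a change in its RNA per cell cannot be told apart.

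Mapk8 and Mapk9 followed the labels. Mapk8 was at 23.9 and 19.1 FPKM in JNK_WT and 4.301 and 4.266 FPKM in JNK_KO, and Mapk9 was at 29.7 and 24.3 FPKM and at 12.6 and 8.66 FPKM. Trp53 was at 1.55 and 4.15 FPKM in JNK_WT and 5.72 and 4.28 FPKM in JNK_KO. The exons removed by Cre were not examined, and fragments from the exons that remain count toward these values. The libraries were similar in scale, with between 12407 and 12875 genes at 1 FPKM or more and an upper quartile between 33.2 and 34.3 FPKM. Their estimated depths differed more. Relative to JNK_KO replicate 1, the lowest, they were 1.06 and 1.27 for JNK_WT replicates 1 and 2 and 1.40 for JNK_KO replicate 3.

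A further 92 genes of death receptor signaling were arranged by role, of which 77 were tested. None was called (0 of 77 by limma, smallest adjusted p 0.138). At an unadjusted limma p under 0.05, 8 were higher and 2 were lower in JNK_KO, beside 4.75% and 2.89% of all tested genes. A total of 19 of the 77 were higher without overlap, 10 were lower without overlap and 48 overlapped, beside 18.3% higher and 16.7% lower over all tested genes. These shares of all genes are also the background for the counts without overlap in each role. The lists were chosen with earlier results of these data known, and Tnfsf11 and Ltb passed the filter only through the JNK_KO lines. The counts and limma p-values of these genes are therefore a description. The median difference was 0.06 and the range was from -1.06 to 3.83.

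**Figure D4:**
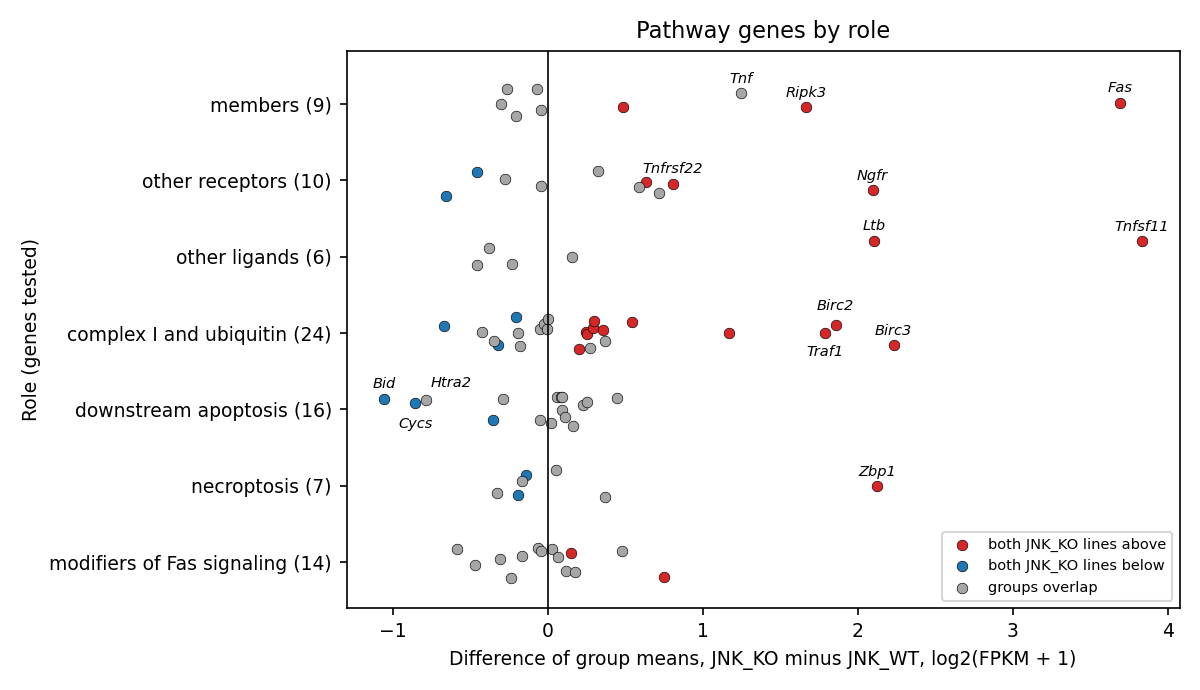
Difference between the group means (JNK_KO minus JNK_WT, log2(FPKM + 1)) for the tested genes of the list and for 77 other pathway genes by role, 1 point per gene with random vertical scatter, with the number tested in parentheses. Fas (3.69) and Tnfsf11 (3.83) lie farthest to the right, and the downstream apoptosis genes Bid and Cycs farthest to the left.

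Other ligands and receptors of the family were tested for 6 and 10 genes. Tnfsf11, which encodes RANKL, the cytokine that acts on mammary progenitors downstream of progesterone, had the largest difference. It was at 0.0480 and 0.707 FPKM in JNK_WT and 21.4 and 15.2 FPKM in JNK_KO (difference 3.83, SE 0.40, limma adjusted p 0.138). Ltb, which encodes lymphotoxin beta, was at 0.193 and 0.469 FPKM in JNK_WT and 5.95 and 3.66 FPKM in JNK_KO (2.10, SE 0.36, limma adjusted p 0.262). Like Fas, both were below 1 FPKM in the JNK_WT lines and above it in the JNK_KO lines. Tnfsf12, which encodes TWEAK, overlapped, at 13.3 and 4.88 FPKM and at 12.2 and 2.39 FPKM (-0.46).

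Among the receptors, 3 of 10 were higher without overlap and 2 were lower, beside 18.3% and 16.7% of all tested genes, with a median of 0.46. Ngfr, the p75 neurotrophin receptor, was at 4.22 and 0.241 FPKM in JNK_WT and 19.6 and 4.75 FPKM in JNK_KO (2.10, SE 0.97, limma adjusted p 0.756). Tnfrsf22, a TRAIL decoy receptor, was at 11.9 and 6.56 FPKM in JNK_WT and 16.1 and 16.4 FPKM in JNK_KO (0.80), but it has the close paralogs Tnfrsf23 and Tnfrsf26 and its value is uncertain. Tnfrsf1b, which encodes TNF receptor 2 and lacks a death domain, overlapped, at 45.8 and 17.0 FPKM and at 53.3 and 40.8 FPKM (0.71). The 2 lower receptors, named after their values were seen, were Tnfrsf12a (Fn14, the TWEAK receptor), at 409 and 451 FPKM in JNK_WT and 248 and 298 FPKM in JNK_KO (-0.66), and Ltbr, the receptor for lymphotoxin beta, at 129 and 160 FPKM and at 88.4 and 122 FPKM (-0.46). Ltbr lies on chromosome 6, where the median difference was -0.59, and its difference was 0.13 above this median.

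The genes of the TNF receptor complex and of its ubiquitin signaling numbered 24, all tested, of which 11 were higher without overlap (beside 18.3% of all tested genes), 3 were lower (beside 16.7%) and 10 overlapped, with a median of 0.22. Birc3, which encodes the ubiquitin ligase cIAP2, was at 14.7 and 9.01 FPKM in JNK_WT and 72.6 and 46.1 FPKM in JNK_KO (2.23, SE 0.38, limma adjusted p 0.256). Birc2, which encodes cIAP1, was at 8.73 and 4.95 FPKM in JNK_WT and 31.5 and 22.4 FPKM in JNK_KO (1.86, limma adjusted p 0.343). Both lines lacking JNK were above both JNK_WT lines for each of these ligases, which attach ubiquitin to RIPK1. They lie side by side on chromosome 9, starting at 7818227 and 7848699. Yap1, the next gene, at 7931999, was examined after its values were seen and overlapped, at 67.4 and 59.7 FPKM in JNK_WT and 56.8 and 72.8 FPKM in JNK_KO. Traf1, an adaptor that binds these ligases through TRAF2, was at 8.44 and 11.0 FPKM in JNK_WT and 51.5 and 24.6 FPKM in JNK_KO (1.79, limma adjusted p 0.430).

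Downstream of caspase-8, 16 apoptosis genes were tested, of which 0 were higher without overlap, 3 were lower and 13 overlapped, again beside 18.3% and 16.7%. Bid, the BH3 protein that links caspase-8 to mitochondria, was at 88.7 and 44.2 FPKM in JNK_WT and 26.3 and 33.3 FPKM in JNK_KO (-1.06, SE 0.41, limma adjusted p 0.665). Cycs, which encodes cytochrome c, was at 34.3 and 37.98 FPKM in JNK_WT and 20.8 and 18.2 FPKM in JNK_KO (-0.86, SE 0.24, limma adjusted p 0.485). Htra2, a mitochondrial protease, overlapped, at 153 and 71.7 FPKM and at 72.4 and 50.2 FPKM (-0.79). The other gene lower without overlap, named after its values were seen, was Diablo on chromosome 5. It was at 25.6 and 30.7 FPKM in JNK_WT and 20.5 and 23.0 FPKM in JNK_KO (-0.35). Bid, Cycs and Htra2 lie on chromosome 6, where the median difference was -0.59. Relative to that median, the differences were -0.47 for Bid, -0.27 for Cycs and -0.20 for Htra2. All 5 tested pathway genes of chromosome 6, with Tnfrsf1a and Ltbr, had a negative difference. The part of the chromosome in these differences was not tested.

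Of 7 further necroptosis genes, 1 was higher without overlap, 2 were lower and 4 overlapped, beside the same 18.3% and 16.7%. Zbp1, a sensor of Z-form nucleic acids that binds RIPK3 and is induced by interferon, was at 6.53 and 6.33 FPKM in JNK_WT and 34.1 and 28.8 FPKM in JNK_KO (2.12, SE 0.26, limma adjusted p 0.183). Its spread inside the groups was small, unlike that of Ripk3. Mlkl, the executioner of necroptosis, overlapped, at 18.2 and 11.7 FPKM in JNK_WT and 27.4 and 13.3 FPKM in JNK_KO (0.37). Ppm1b, a phosphatase that acts on RIPK3, also overlapped (-0.33).

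Among 14 tested modifiers of Fas signaling, 2 were higher without overlap, 0 were lower and 12 overlapped, beside 18.3% and 16.7%, with a median of -0.01. Faf1, which encodes a Fas-associated factor, was at 16.9 and 22.3 FPKM in JNK_WT and 31.1 and 35.6 FPKM in JNK_KO (0.75, limma adjusted p 0.634). Ptpn13, a phosphatase that binds the Fas tail, overlapped (-0.59), as did Casp8ap2, which encodes a caspase-8 associated protein (0.48). The difference of Fas itself, 3.69, was larger than that of any of the 14 tested modifiers.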

How the data were processed

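RNA sequencing of 4 tumor cell lines was analyzed. The authors trimmed single-end reads, sampled them with seqtk and aligned them to mm10 (GRCm38) with Bowtie2 and TopHat2 (2.0.14). They deposited 1 FPKM value per gene and library from Cufflinks (2.2.1). The annotation they used is not given in the sources used here. Cufflinks divides shared reads between overlapping genes by estimate. The table held 38741 rows, of which 27 with dates for symbols and 1 without a value were left out.

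Genes reaching 1 FPKM in 2 or more libraries were fitted on log2(FPKM + 1) with limma 3.58.1 (R 4.3.3, eBayes with an intensity trend, two-sided, Benjamini-Hochberg adjustment over 12998 genes). Calls required an adjusted p under 0.05 and an absolute difference over 0.75. SE and p-values are from that fit, which draws the variance of each gene toward a trend with expression over all tested genes. They are therefore not measures of the gene's own spread among these 4 lines alone. The SE of a gene can be smaller or larger than that spread would give. The study's Cuffdiff test needs alignments and was not run. The script was tested on simulated data.

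The genes and lists were chosen with earlier results of these data known. Besides the 10 genes, those named were the 3 with the largest absolute difference in each list, Fasl, Mlkl, Bid, the targeted genes, Irf7, Irf1 and the nearest patterns. Some genes under this rule are not reported here, though they are part of the counts. Any other was picked later, as stated beside it, except the cell type markers, which illustrate their sums. Of the 92 other pathway genes, all were found, 3 through older symbols. Positions came from GENCODE M21 and promoters from RefSeq. Read depth per library was not known, and relative depths came from the steps between low FPKM values, so counting intervals could not be given. The alternatives covered the pseudocount, the filter, the scaling between libraries, the variance model, the thresholds and leaving out each replicate. Python 3.11.15 with pandas 2.3.3 was used for summaries and matplotlib 3.10.9 for figures.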

Additional observations from a re-analysis of the deposited data

How the results depend on the processing

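The number of genes called in the whole table, 0 as reported, rose to 10 and 14 when 0.1 and 0.5 were added to FPKM in place of 1, to 14 when the variance model had no trend, and to 25 at an adjusted p under 0.1. It was 0 in each fit without 1 replicate. Of the other pathway genes, 0 were called in every alternative. The count of the 10 genes with a difference over 0.75 and no overlap was 2 as reported, 1 with a filter at a mean of 5 FPKM, which removes Ripk3, Tnf and Fadd from the fit, and from 1 to 3 without 1 replicate. It was 1 without JNK_KO replicate 1, where the difference of Ripk3 was 0.73, and 3 without JNK_WT replicate 2 or JNK_KO replicate 3. The median difference of the tested genes of the list turned from -0.047 to 0.077 with no filter on low values, which adds Tnfsf10, and lay between -0.14 and 0.21 without 1 replicate, above 0 without JNK_WT replicate 1, JNK_WT replicate 2 or JNK_KO replicate 1. That of the other pathway genes turned from 0.056 to -0.016 under quantile normalization, where the median of all genes was -0.04, and lay between 0.05 and 0.14 without 1 replicate.

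The Fas difference was between 3.48 and 4.81 over the other settings and between 3.55 and 3.84 without 1 replicate. Directions that turned without 1 replicate were those of Casp8 (-0.69 to 0.55), Cflar (-0.21 to 0.11) and Ripk1 (-0.425 to 0.009), each of which overlapped between the groups. Casp8 turned without JNK_WT replicate 1, Cflar without JNK_WT replicate 1 or JNK_KO replicate 1, and Ripk1 without JNK_WT replicate 2. Without 1 replicate Ripk3 lay between 0.73 and 2.60 and Tnf between 0.21 and 2.29. Over the other settings Ripk3 lay between 1.44 and 2.91, the highest with 0.1 added to FPKM, and Tnf between 1.06 and 2.01. A fit that leaves a group with 1 library assumes that it varies like the other group. No paired analysis was possible because only replicate number 1 occurs in both groups. Depth limits what can be said of Tnfsf10, Fasl and of Fas and Ripk3 in JNK_WT, all under 1 FPKM in those libraries.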
